A study of Homo sapiens with 4 samples.

Results

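Cohesin and condensin are ring-shaped complexes that hold and fold chromosomal DNA, and 10 genes of their subunits were followed in the human colorectal cancer cell line HCT116 after knockdown of TET1, an enzyme that oxidises methylated cytosine. The genes were chosen by name: SMC1A, SMC3, RAD21 and STAG2 for cohesin (4 genes), and SMC2, SMC4, NCAPD2, NCAPG, NCAPH and NCAPD3 for condensin (6 genes), out of 19775 genes that the arrays name. Every probe set whose annotation gives 1 of these symbols alone was taken, which gave 23 probe sets, 13 for cohesin and 10 for condensin. The cells had been transfected with TET1 siRNA (2 arrays) or with control siRNA (2 arrays) by a lipid reagent, and RNA of each sample was hybridised to 1 Affymetrix array. The design text calls the samples biological duplicates, and nothing more is said of how the cultures were kept apart. The p-values therefore reach no further than these samples. In limma each gene's spread was drawn toward that of genes of similar signal, which weighed more (9.38 prior against 2 residual degrees of freedom). Each value is a probe set signal in arbitrary units, and the authors had scaled all arrays to a common trimmed mean. The labels give a lone TET1 siRNA group, so loss of TET1 and other effects of that siRNA cannot be told apart.

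The targeted transcript was lower where the labels say it should be. TET1 gave signals of 14.6 and 15.0 on the TET1 siRNA arrays, against 58.1 and 59.6 on the control siRNA arrays, by its brighter probe set. The TET1 siRNA values lay near the filter on dim signals, 13.1. Its other probe set read 6.0 and 8.9 with TET1 siRNA against 18.2 and 35.5 with control siRNA, and did not pass (limma adjusted p = 0.0509). Of 10 epithelial markers 6 were bright, among them EPCAM at 3134 and 3095 on the TET1 siRNA arrays and 2870 and 2742 on the control siRNA arrays. The intestinal markers VIL1 and CEACAM5 were dim, and CDX2 and LGALS4 lay below the filter on dim signals. The summed epithelial signal was 19830 to 19840 with TET1 siRNA and 17780 to 18430 with control siRNA, but the adhesion gene CDH1 fell to 43.8% of the control mean (log2 difference -1.17, limma adjusted p = 2.51e-05) and the keratin gene KRT8 rose (0.32, limma adjusted p = 0.00861). Of 8 fibroblast markers 3 lay above the filter, and the summed signal of all 8 was 397.5 to 511.0 with TET1 siRNA and 325.5 to 358.7 with control siRNA. Most of that sum was COL1A1, a collagen gene, at 337.4 and 451.9 with TET1 siRNA against 296.2 and 258.9 with control siRNA, and it rose (0.47, limma adjusted p = 0.0235), while COL1A2 (-0.20) and DCN (-0.10) did not pass. The matching sums were 76.2 to 76.3 with TET1 siRNA and 49.8 to 90.7 with control siRNA for lymphocyte and myeloid markers (1 of 8 above the filter), and 24.3 to 36.6 with TET1 siRNA and 30.1 to 47.9 with control siRNA for endothelial markers (1 of 5). As a sign of RNA quality, the signal of the 3' probe set of ACTB over its 5' one was 1.281 and 1.257 on the TET1 siRNA arrays, against 1.205 and 1.19 on the control siRNA arrays, and the same ratio for GAPDH was 0.884 and 0.858 against 0.858 and 0.846. The part of these markers and of RNA quality in the results below was not tested.

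Both complexes are built on a pair of SMC proteins, long coiled coils with an ATPase head, whose heads are bridged by a kleisin subunit. In cohesin the pair is SMC1A and SMC3, the kleisin is RAD21, and STAG2 or its paralogue STAG1 binds the kleisin. In condensin the pair is SMC2 and SMC4; condensin I adds the kleisin NCAPH with NCAPD2 and NCAPG, and condensin II adds NCAPH2 with NCAPD3 and NCAPG2. Cohesin holds sister chromatids together from replication to anaphase and forms loops in interphase, and condensin compacts chromosomes for mitosis.

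NCAPH, NCAPD2, NCAPG and NCAPD3, which encode non-SMC subunits of condensin, were lower after TET1 siRNA, whereas the SMC genes of condensin and 3 of the 4 cohesin genes did not pass the test. Of the 6 condensin genes 4 fell and none rose, where 10.6% of all 12389 genes tested fell; the 3' to 5' ratio of ACTB was higher on the same TET1 siRNA arrays. Of the 4 cohesin genes 1 rose and none fell, where 11.2% of all genes tested rose. In all, 5 of the 10 genes passed in either direction, where 21.8% of all genes tested did. The median log2 difference was -0.34 for condensin and 0.04 for cohesin, and 0.01 for all genes tested. Genes were tested by their probe set of highest mean log2 signal with limma, on log2(signal + 16), at a Benjamini-Hochberg adjusted p below 0.05 over all genes, and that log2 scale understates the change of dim genes. In this bulk RNA, fewer cells in mitosis and less RNA per cell cannot be told apart.

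**Figure D1:**
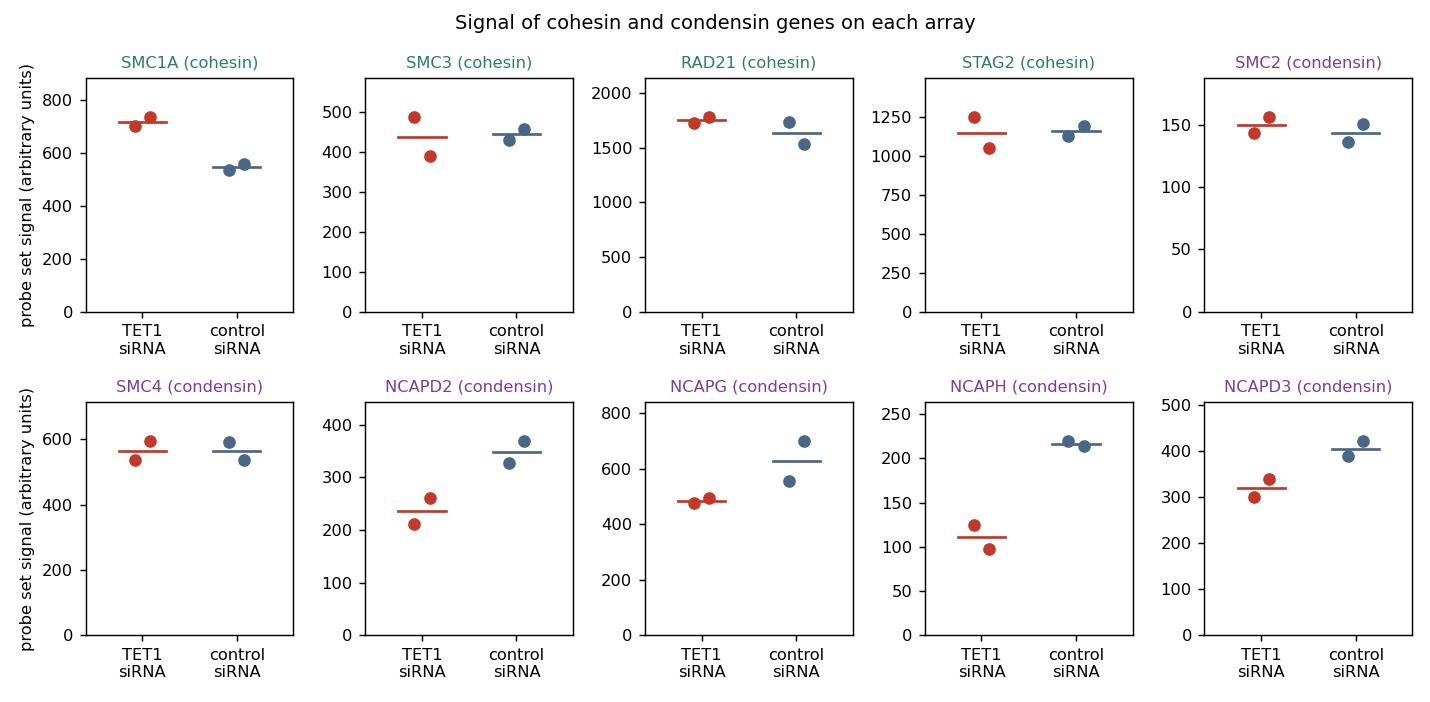
Signal of each gene on each array, by the probe set that represents it, on a linear axis from 0 in arbitrary units; each point is 1 array, the bar is the mean of 2 arrays, and each panel has its own scale. TET1 siRNA points lie below both control siRNA points for NCAPD2, NCAPG, NCAPH and NCAPD3, above both for SMC1A, and overlap them for the other 5 genes.

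NCAPH, the kleisin of condensin I, fell most among the 10 genes. Its signal was 124.6 and 97.3 on the TET1 siRNA arrays, against 219.4 and 213.7 on the control siRNA arrays. Both TET1 siRNA values lay well below both control values, and 51.2% of the control mean remained. The log2 difference was -0.88 (SE 0.13, 95% interval -1.18 to -0.59, limma adjusted p = 7.9e-04), lower than that of all but 1.5% of the genes tested. It stayed past the threshold when any 1 array was left out, with log2 differences of -1.04 to -0.73.

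NCAPD2 encodes a HEAT-repeat subunit of condensin I. Its signal was 211.8 and 261.2 on the TET1 siRNA arrays, against 327.4 and 368.8 on the control siRNA arrays. The groups did not overlap, and the log2 difference was -0.53 (SE 0.12, limma adjusted p = 0.00769). The call was lost without control siRNA replicate 2 (-0.45, limma adjusted p = 0.0658) and without TET1 siRNA replicate 1 (-0.39, limma adjusted p = 0.0721).

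NCAPG, the other HEAT-repeat subunit of condensin I, was read by a pair of probe sets that moved alike. The brighter gave 477.2 and 492.3 on the TET1 siRNA arrays, against 554.2 and 699.0 on the control siRNA arrays, and the dimmer gave 402.6 and 390.6 against 489.4 and 525.3. Each of them passed in the test of single probe sets, at log2 differences of -0.35 (limma adjusted p = 0.0499) and -0.34 (limma adjusted p = 0.0237). As a gene NCAPG had a log2 difference of -0.35 (SE 0.11, limma adjusted p = 0.0353). It no longer passed without control siRNA replicate 2, the array with the signal of 699.0 (-0.19, adjusted p = 0.265), nor without TET1 siRNA replicate 1 (adjusted p = 0.142) or replicate 2 (adjusted p = 0.11).

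NCAPD3, the condensin II counterpart of NCAPD2, also fell. Its signal was 300.2 and 338.7 on the TET1 siRNA arrays, against 388.7 and 421.3 on the control siRNA arrays, a log2 difference of -0.33 (SE 0.10, limma adjusted p = 0.0348). Although the groups did not overlap, the call was lost when any 1 array was left out. The adjusted p was 0.054 and 0.171 without control siRNA replicates 1 and 2, and 0.215 and 0.0511 without TET1 siRNA replicates 1 and 2. The count of condensin genes that fell was accordingly 3, 1, 1 and 2 without these arrays in the same order. With each array centred on its median NCAPG (adjusted p = 0.0588) and NCAPD3 (adjusted p = 0.066) did not pass, and without a trend of variance on signal NCAPH alone did.

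SMC2 and SMC4 are the ATPase pair of both condensins. SMC2 gave 143.9 and 156.2 on the TET1 siRNA arrays, against 136.6 and 150.5 on the control siRNA arrays, and SMC4 gave 536.3 and 594.4 against 590.9 and 536.6. The groups overlapped for both genes. The log2 difference was 0.06 for SMC2 (95% interval -0.21 to 0.33, limma adjusted p = 0.802) and 0.00 for SMC4 (95% interval -0.19 to 0.20, limma adjusted p = 0.983). Both intervals hold rises as well as falls, and that of SMC2 reaches up to 0.33. Neither reaches down to the -0.33 of NCAPD3, but both overlap the 95% interval of NCAPD3, -0.55 to -0.11. The difference between these genes was not tested.

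The probe sets of SMC4 did not give the same picture. A second bright probe set read 454.1 and 548.8 on the TET1 siRNA arrays, against 605.0 and 556.3 on the control siRNA arrays (log2 difference -0.21, limma adjusted p = 0.205). The remaining one, of the _x_at type that can bind other transcripts, was dim and read 24.7 and 16.9 against 47.4 and 47.2. That probe set fell by 0.79 on the log2 scale (SE 0.20, limma adjusted p = 0.0223). With all its probe sets averaged, the second bright one and the dim one included, SMC4 had a log2 difference of -0.33 (limma adjusted p = 0.0358). The other SMC2 probe set read 55.9 and 41.0 with TET1 siRNA and 51.7 and 46.4 with control siRNA, with overlapping groups.

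SMC1A, which with SMC3 forms the ATPase pair of cohesin, was the 1 member that rose. Its bright probe set read 702.9 and 734.8 on the TET1 siRNA arrays, against 536.7 and 557.7 on the control siRNA arrays. Both TET1 siRNA values were higher than both control values, at 1.31-fold of the control mean. The log2 difference was 0.38 (SE 0.08, 95% interval 0.21 to 0.56, limma adjusted p = 0.00541), and it lost the call without TET1 siRNA replicate 2 (0.35, adjusted p = 0.054). The other 3 SMC1A probe sets were dim, with signals of 5.3 to 25.7 on the TET1 siRNA arrays and 8.4 to 20.1 on the control siRNA arrays. Averaged with them, SMC1A was at 0.13 (adjusted p = 0.552).

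The rest of the cohesin ring did not pass. SMC3, the partner of SMC1A, gave 486.8 and 390.7 on the TET1 siRNA arrays, against 430.8 and 458.2 on the control siRNA arrays, a log2 difference of -0.03 (95% interval -0.26 to 0.21). RAD21, the kleisin that separase cuts at anaphase, gave 1725 and 1778 against 1734 and 1537, a log2 difference of 0.10 (95% interval -0.06 to 0.27). STAG2, a cohesin subunit often mutated in cancer, gave 1249 and 1049 against 1130 and 1191, a log2 difference of -0.02 (95% interval -0.21 to 0.17). In all 3 genes the groups overlapped, and limma's adjusted p was 0.904, 0.392 and 0.912 in this order. The intervals hold both rises and falls, up to 0.27 for RAD21 and down to -0.26 for SMC3.

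Taken probe set by probe set, 21 of the 23 lay above the filter, and the other 2, of SMC1A and SMC3, were too dim to test. Of 10 condensin probe sets 6 fell and none rose, against 8.31% of all 27306 probe sets tested that fell. Of 11 cohesin probe sets 1 rose and none fell, against 7.76% of all probe sets that rose. In either direction 16.1% of all probe sets passed. With any 1 array left out, 1 to 4 member probe sets were called lower, and with no filter on dim signals 1 was. NCAPH, NCAPD2, NCAPG and NCAPD3 were called lower in every probe set they have, which is 1 probe set each except for NCAPG. For cohesin, 4 of 13 probe sets had groups that did not overlap, and they went both ways: SMC1A, a probe set of SMC3 and a probe set of RAD21 were higher on both TET1 siRNA arrays, and a probe set of STAG2 was lower. For condensin, the 6 probe sets called lower and the second bright one of SMC4 lay lower on both TET1 siRNA arrays. In the other condensin probe sets the groups overlapped. Among all genes tested, each by the probe set that represents it, both TET1 siRNA arrays lay below both control arrays in 28.1% and above them in 30.9%. That share was not taken over all probe sets.

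**Figure D2:**
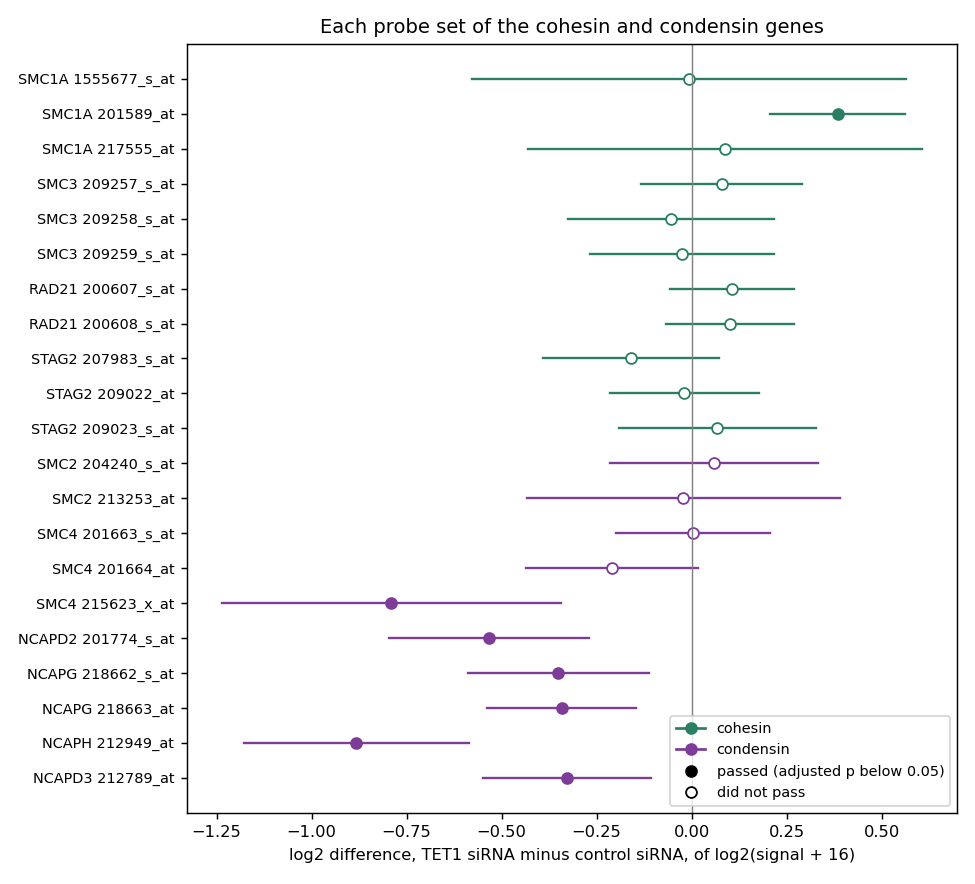
Log2 difference (TET1 siRNA minus control siRNA, of log2(signal + 16)) of each probe set above the filter, tested by itself; bars are limma's 95% intervals, colour marks the complex, and filled points passed. The 6 filled condensin points lie between -0.88 and -0.33, and the only filled cohesin point, of SMC1A, lies at 0.38.

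Set against each other on each array, the complexes parted. Relative to the mean of the control arrays, the mean log2 level of all 6 condensin genes was -0.375 and -0.303 on the TET1 siRNA arrays. On the control siRNA arrays it was -0.046 and 0.046. Over the 4 non-SMC condensin genes alone, the mean was -0.55 and -0.50 on the TET1 siRNA arrays, and -0.07 and 0.07 on the control siRNA arrays. The same mean over the 4 cohesin genes was 0.17 and 0.05 on the TET1 siRNA arrays, and -0.01 and 0.01 on the control siRNA arrays. Without SMC1A the cohesin mean was 0.10 and -0.07 on the TET1 siRNA arrays, so its sign on the second array rested on SMC1A. Condensin minus cohesin was -0.54 and -0.36 with TET1 siRNA, against -0.04 and 0.04 with control siRNA. Within condensin, the mean of non-SMC genes minus that of SMC genes was -0.51 and -0.60 with TET1 siRNA, against -0.07 and 0.07 with control siRNA. This split of condensin was not among the planned comparisons. Its non-SMC genes are those called lower and its SMC genes those that did not pass, so the gap gives the calls no added support. No p is given for these differences, because genes of a complex are not replicates and an exact permutation of 2 against 2 arrays cannot go below 0.33.

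Genes of the cell cycle give the setting for these values. Of 30 genes of G2/M and mitosis 23 fell and none rose, where 10.6% of all genes tested fell, with a median log2 difference of -0.51. Of 30 genes of S phase and replication 12 fell and 1 rose, against the same 10.6%, with a median of -0.29; the falls were 7 when control siRNA replicate 2 was left out, and 7 when TET1 siRNA replicate 1 was. CDK1, the kinase of mitotic entry, gave 1785 and 1805 on the TET1 siRNA arrays, against 2728 and 2766 on the control siRNA arrays (log2 difference -0.61, limma adjusted p = 6.44e-05). The mitotic genes KIF20A (-1.10) and BIRC5 (-0.94) and the replication genes GINS1 (-1.25) and RFC2 (-0.84) had the largest falls of their lists. PCNA, the sliding clamp of replication, was the S phase gene that rose (0.24, limma adjusted p = 0.0405), and it passed in 1 of the 4 fits with an array left out, that without control siRNA replicate 1. The mean of the mitotic genes was -0.53 and -0.47 on the TET1 siRNA arrays, close to that of the 4 non-SMC condensin genes. Those 4 are the condensin genes that were called lower. Over all 6 condensin genes the mean on the TET1 siRNA arrays was -0.375 and -0.303, and over the S phase genes it was -0.392 and -0.236. The part of cell cycle position in the condensin values was not tested.

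**Figure D3:**
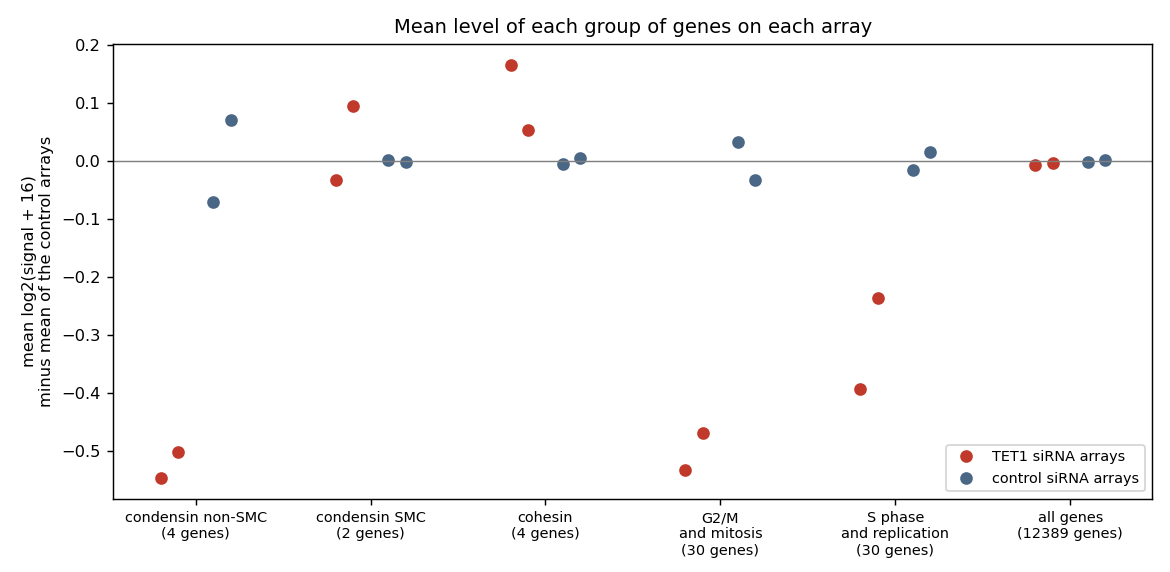
Mean log2(signal + 16) of each group of genes on each array, minus the mean of the control siRNA arrays; each point is 1 array. The non-SMC condensin genes (-0.55 and -0.50) and the mitotic genes (-0.53 and -0.47) lie lowest on the TET1 siRNA arrays, while the cohesin genes (0.17 and 0.05) and all genes tested lie nearer to 0. The non-SMC condensin genes are the condensin genes that were called lower.

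Other genes of these pathways were read from lists of subunits, regulators and partners. Of 35 genes 34 are on the arrays by a probe set with 1 symbol, 30 lay above the filter, and of those 9 fell, against 10.6% of all genes tested, none rose and 21 did not pass (median -0.15); without TET1 siRNA replicate 2 the falls were 5. Among other subunits of cohesin, STAG1 fell, with 143.8 and 133.9 on the TET1 siRNA arrays against 202.1 and 203.1 on the control siRNA arrays (log2 difference -0.50, SE 0.12, limma adjusted p = 0.00956). Its other tested probe set fell too, while no probe set of its paralogue STAG2 passed; the difference between the paralogues was not tested. STAG1 was lost without TET1 siRNA replicate 2 (adjusted p = 0.0722) and when its probe sets were averaged (-0.28, adjusted p = 0.136). The germline subunits STAG3, SMC1B and RAD21L1 were too dim to test, and REC8 did not pass.

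Of 14 genes that load, release, acetylate or cut cohesin 3 fell and none rose, where 10.6% of all genes tested fell. CDCA5 (sororin), which protects cohesin on replicated chromatids from release, gave 128.8 and 152.0 on the TET1 siRNA arrays, against 254.8 and 253.9 on the control siRNA arrays. Its log2 difference of -0.79 (SE 0.12, limma adjusted p = 6.86e-04) was next to that of NCAPH in size and passed with any 1 array left out. ESPL1 (separase, the protease that cuts RAD21) had a log2 difference of -0.47 (limma adjusted p = 0.0167), and PTTG1 (securin, the inhibitor of separase) of -0.29 (limma adjusted p = 0.0077). The PTTG1 probe set is of the _x_at type, and PTTG1 has near-identical copies, so its value is uncertain. ESPL1 was lost if control siRNA replicate 2 (adjusted p = 0.1) or TET1 siRNA replicate 1 (adjusted p = 0.116) was left out, and PTTG1 without TET1 siRNA replicate 2 (adjusted p = 0.0707). The loader gene NIPBL gave 272.8 and 369.4 against 306.4 and 340.0, with overlapping groups (log2 difference -0.02).

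NCAPG2, a subunit of condensin II, fell. Its signal was 150.8 and 204.1 on the TET1 siRNA arrays, against 233.4 and 268.3 on the control siRNA arrays (log2 difference -0.47, SE 0.14, limma adjusted p = 0.0322). It was lost without control siRNA replicate 2 (adjusted p = 0.182) and without TET1 siRNA replicate 1 (adjusted p = 0.251). NCAPH2, the condensin II kleisin, gave 68.0 and 78.2 against 88.2 and 98.9, lower on both arrays but short of the threshold (log2 difference -0.30, limma adjusted p = 0.196). Of the SMC5/6 complex, another SMC ring, with roles in DNA repair, 1 of 6 tested genes fell, near the 10.6% of all genes tested: SMC5 (-0.51, limma adjusted p = 0.0165), in 1 of its 2 tested probe sets. SMC5 did not pass without control siRNA replicate 2 (adjusted p = 0.126) or without TET1 siRNA replicate 2 (adjusted p = 0.119).

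Among partners on chromosomes, 3 of 6 genes fell and none rose, where 10.6% of all genes tested fell. They were KIF4A, a kinesin that binds mitotic chromosome arms (-0.67, limma adjusted p = 8.99e-04), MKI67, which coats mitotic chromosomes (-0.54, limma adjusted p = 0.0017), and TOP2A, the topoisomerase that untangles sister chromatids (-0.32, limma adjusted p = 0.0195). TOP2A was lost without control siRNA replicate 1 (adjusted p = 0.114), TET1 siRNA replicate 1 (adjusted p = 0.0751) or TET1 siRNA replicate 2 (adjusted p = 0.0989). In the limma fit on averaged probe sets SMC5 (adjusted p = 0.077) and TOP2A (adjusted p = 0.0613) did not pass. NCAPG2 did not pass there either (adjusted p = 0.0599), though its log2 difference was the same as in the main fit. TOP2B (0.13), SMCHD1 (0.10) and CTCF (-0.28), which act on interphase chromatin, did not pass. CTCF gave 318.2 and 388.6 on the TET1 siRNA arrays, against 404.2 and 457.3 on the control siRNA arrays (limma adjusted p = 0.0995). With the replicate number as a block in limma, CTCF passed as lower (adjusted p = 0.0495). The difference between CTCF and TOP2A was not tested.

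**Figure D4:**
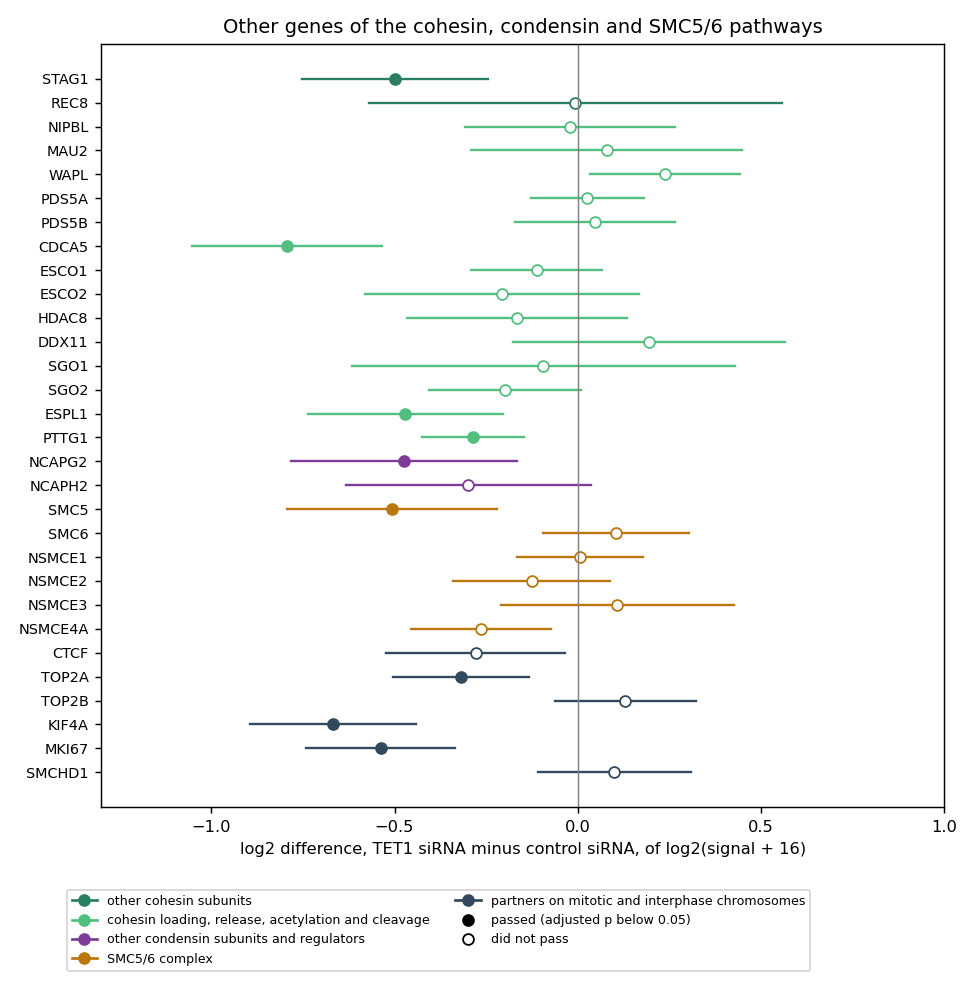
Log2 difference (TET1 siRNA minus control siRNA, of log2(signal + 16)) of 30 other genes of these pathways above the filter, with limma's 95% intervals; filled points passed and colour marks the list. The 9 filled points, STAG1, CDCA5, ESPL1, PTTG1, NCAPG2, SMC5, TOP2A, KIF4A and MKI67, all lie below 0, from -0.79 to -0.29.

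Promoters were examined because several condensin genes moved together. Many mitotic genes carry near their start a cell cycle homology region, a short element read by repressor and activator complexes of the cell cycle, and it was searched as TTTGAA or TTTAAA on both strands in windows of 250 bases before to 50 after each start (RefSeq, GRCh38.p14). Windows were found for 9 of the 10 genes, with 1 to 3 starts each. All 6 condensin genes had a match in at least 1 window, against 1 of 3 cohesin genes, SMC3. Of all 27305 genes with a window 27.9% had a match, as had 19 of 24 mitotic genes and 4 of 26 S phase genes of the lists above that have one. SMC2 and SMC4 hold a match and did not pass the test, so the letters did not part the condensin genes that fell from those that did not.

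The stretches below run 5′ to 3′ from 160 bases before to 10 after a start, to show where the element stands, and capitals mark a match (TTCAAA is TTTGAA on the other strand). The match begins 35 bases before the start in NCAPG, 145 in NCAPD2, 75 in SMC4, 151 in SMC3, and 3 in SMC2 and NCAPD3. NCAPD3 is shown at the second of its starts, SMC2, SMC4 and SMC1A at the first of theirs. In NCAPH the match, TTTAAA, begins at base 33 after the start and so lies outside its stretch, and SMC1A has none.
NCAPG, chr4:17810819-17810988, + strand: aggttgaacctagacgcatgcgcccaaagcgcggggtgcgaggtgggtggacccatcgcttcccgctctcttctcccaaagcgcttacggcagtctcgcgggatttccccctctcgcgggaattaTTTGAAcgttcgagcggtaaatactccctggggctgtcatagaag
NCAPD2, chr12:6493942-6494111, + strand: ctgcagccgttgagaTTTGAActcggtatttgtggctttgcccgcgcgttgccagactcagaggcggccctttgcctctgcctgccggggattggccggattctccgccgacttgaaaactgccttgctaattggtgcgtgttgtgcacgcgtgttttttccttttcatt
NCAPD3, chr11:134223958-134224127, - strand: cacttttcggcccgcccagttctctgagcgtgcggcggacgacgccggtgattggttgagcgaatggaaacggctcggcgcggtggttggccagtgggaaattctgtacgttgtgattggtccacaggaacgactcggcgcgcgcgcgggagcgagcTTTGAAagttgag
NCAPH, chr2:96335606-96335775, + strand: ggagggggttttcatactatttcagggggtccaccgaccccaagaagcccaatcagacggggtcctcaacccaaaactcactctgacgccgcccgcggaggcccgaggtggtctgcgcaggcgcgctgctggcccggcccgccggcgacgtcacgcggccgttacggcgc
SMC2, chr9:104094149-104094318, + strand: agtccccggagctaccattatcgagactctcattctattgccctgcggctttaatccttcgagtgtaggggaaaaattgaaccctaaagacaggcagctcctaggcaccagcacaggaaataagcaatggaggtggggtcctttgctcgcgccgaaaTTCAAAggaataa
SMC4, chr3:160399490-160399659, + strand: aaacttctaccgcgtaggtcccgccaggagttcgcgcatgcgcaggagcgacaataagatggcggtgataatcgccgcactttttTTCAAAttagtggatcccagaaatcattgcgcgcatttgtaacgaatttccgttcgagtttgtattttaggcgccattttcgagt
SMC3, chr10:110567535-110567704, + strand: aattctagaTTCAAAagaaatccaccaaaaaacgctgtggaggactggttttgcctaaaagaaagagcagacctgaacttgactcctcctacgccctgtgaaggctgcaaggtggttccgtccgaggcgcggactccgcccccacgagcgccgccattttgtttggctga
SMC1A, chrX:53422719-53422888, - strand: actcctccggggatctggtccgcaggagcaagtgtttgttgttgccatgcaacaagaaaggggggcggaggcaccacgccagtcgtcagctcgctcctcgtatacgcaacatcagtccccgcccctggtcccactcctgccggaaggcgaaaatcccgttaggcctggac
The CCAAT box, searched as CCAAT on both strands, stood in windows of 3 of 6 condensin genes (NCAPD2, NCAPH and NCAPD3) and 1 of 3 cohesin genes (STAG2), against 39.7% of all genes. An E2F element, searched as TTTCCCGC, TTTCGCGC, TTTGCCGC or TTTGGCGC on both strands, stood in 1 of 6 condensin genes (NCAPD3) and 2 of 3 cohesin genes (SMC1A and STAG2), against 4.0% of all genes. No match of one element overlapped that of another in these windows (0 overlaps). A match describes the letters of a window, and binding was not measured.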

How the data were processed

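RNA of 4 samples of HCT116 cells was measured on 1 array each; per the labels' protocols cDNA was primed with oligo(dT) and labelled with biotin, so signals come mainly from 3' ends of polyadenylated transcripts. The authors deposited linear intensity values, 1 per probe set. With 2% of values trimmed from each end all arrays average 100.01, a scaling that hides any change in total mRNA; the background step is not given in the sources used here, nor is the software. Precision is limited by there being 2 arrays a group.

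Of 54675 probe sets, the 62 of array controls were not used. The annotation names 1 symbol for 41091, and gene identifiers matched RefSeq names for 41037. Genes were represented by the probe set of highest mean log2(signal + 16), and those above the median of all probe sets (4.86, a signal of 13.1) were tested with limma 3.58.1 in R 4.3.3 (eBayes with trend, 2 residual and 9.38 prior degrees of freedom, two-sided, threshold 0.05). The probe set of highest mean linear signal was run first; the log2 rule replaced it after both results had been seen, and the linear rule is kept as an alternative. The script was tested on simulated data. Alternatives are given in the closing section. Genes, lists and tests were chosen with earlier results of these data known. Named were TET1, all 10 members, list genes that passed, NIPBL, NCAPG2, NCAPH2, CDK1, PCNA, and the 2 largest changes of each cell cycle list; cell type markers, germline subunits, genes of interphase chromatin and genes whose call changed with the replicate block were named after their values were seen. Deviations of same-numbered arrays correlated at 0.0058, so the numbers were not taken as pairs. Figures were drawn with matplotlib 3.10.9.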

Additional observations from a re-analysis of the deposited data

How the results depend on the processing

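Across 16 alternatives the log2 difference of NCAPH, NCAPD2, NCAPG and NCAPD3 was below 0, and that of SMC1A above 0, wherever they were tested; NCAPH passed in 15 of 16, SMC1A in 12 of 16, NCAPD2 in 11 of 15, NCAPG in 9 of 16 and NCAPD3 in 8 of 16. SMC4 went to -0.33 (limma adjusted p = 0.0358) with the mean of its probe sets, against 0.00 by its brightest. That mean takes in the dim probe set that fell (-0.79) and the second bright one (-0.21). The alternative with the probe set of highest mean linear signal, and all alternatives for the related lists, were chosen after seeing the data. RAD21, SMC3 and NCAPD2 have no value without _x_at and _s_at probe sets.

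Without a trend of variance the counts were 1 condensin gene lower and 0 cohesin genes higher, 1 probe set lower and 0 higher, 4 pathway genes and 15 mitotic genes lower, and of S phase genes 4 lower and 0 higher. In limma without moderation, which leaves 2 residual degrees of freedom, all these counts were 0. So was the count over all genes tested (lowest adjusted p = 0.0898). In that fit 2 of the 10 genes were at unadjusted p below 0.05, as were 2671 of all 12389 genes tested. TET1 was at -1.28 there (adjusted p = 0.0999). Condensin genes called lower were 2 with median centring and 2 with no filter. Member probe sets called lower were 1 with no filter and 2 without _x_at and _s_at probe sets, where 8 were left. With the mean of all probe sets 0 cohesin genes were higher and 5 pathway genes lower. S phase genes higher were 0 under quantile normalization, under averaged probe sets and with no filter, and 5 S phase genes were lower once _x_at and _s_at probe sets were dropped. The cause of these shifts was not tested.

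The median log2 difference of condensin minus that of cohesin was -0.38. It was -0.51 once _x_at and _s_at probe sets were dropped, over the 7 genes left, where SMC1A and STAG2 alone stood for cohesin. With 1 array left out it ran from -0.52 to -0.25, and the lone array is then assumed to vary like the other group. Such fits gave 1 to 3 condensin genes lower and 0 to 1 cohesin genes higher, 1 to 4 member probe sets lower and 0 to 1 higher, 5 to 8 pathway genes lower, 19 to 23 mitotic genes lower, and of S phase genes 7 to 12 lower and 0 to 2 higher. With the replicate number as a block 4 condensin genes were lower and 1 cohesin gene higher, with 11 pathway genes, 24 mitotic genes and 13 S phase genes lower. No call of a member changed; CTCF (-0.28, adjusted p = 0.0495), NSMCE4A, FOXM1 and CDT1 passed as lower with the block and not without it, and no other list gene changed call.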
